A study of Mus musculus with 4 samples.

Results

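The nuclei described here were 125 of 32044 nuclei kept from mouse hippocampus, or 0.390% (exact 95% binomial interval 0.325% to 0.465%). They were chosen by their own counts of unique molecular identifiers (UMIs, 1 per captured RNA molecule). A nucleus was a member if at least 4 of 9 genes had a UMI and if Sfta3-ps or Hpse2 was among them. The 9 genes were Sfta3-ps, Hpse2, Crb1, Enkur, Slit2, Cnmd, Nkx2-1, C230072F16Rik and Gm34517, and they are called the rule genes below. Their levels in members are therefore a description, and so is every other comparison of members with the remaining nuclei, because the members were picked from these same counts. Of the 125 members, 18 had exactly 4 rule genes, 15 had 5, 29 had 6, 22 had 7, 24 had 8 and 17 had all 9. Just outside the threshold, 37 nuclei had 3 rule genes with Sfta3-ps or Hpse2 among them, and their median depth was 9269 UMIs against 3883.5 UMIs for the members with exactly 4. A further 16 nuclei had 4 or more rule genes but neither Sfta3-ps nor Hpse2, and they were not members.

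The study compared 3 genotypes by droplet sequencing of nuclei from frozen hippocampus that was pooled within a group. WT mice carried neither transgene, and 1 WT library was analysed. PS19 mice carry human MAPT with the P301S mutation (1N4R tau) under the prion protein (Prnp) promoter on a B6;C3 background, a model of tau pathology, and 2 PS19 libraries were analysed. TG_PS19 mice carry the same tau transgene together with SORLA-Rosa26, which overexpresses the sorting receptor SORLA from a CMV/β-actin promoter, and 1 TG_PS19 library was analysed. The number, age and sex of the animals in a pool were not stated, nor whether the 2 PS19 libraries came from separate animals. WT and TG_PS19 had no replicate, which holds for every value below.

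Nkx2-1 is a homeodomain transcription factor that patterns the ventral forebrain, including the hypothalamus, and also acts in thyroid and lung. Ependymal cells line the ventricles and carry bundles of motile cilia, which are built from axonemal dyneins, radial spokes and central-pair proteins under the transcription factors FOXJ1 and RFX. Tanycytes are long ependymal-lineage glia of the third ventricle wall that express Rax, and the radial glia of the adult dentate gyrus are stem cells that express Hopx and Nes. Astrocytes take up glutamate through the transporters encoded by Slc1a2 and Slc1a3.

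The members had RNA of several cilium genes, so the promoters of these genes and of a member transcription factor are shown. The windows run from 250 bases before to 50 bases after the RefSeq start site, on mouse build GRCm38.p6. Capitals mark a match to the X-box, the site that RFX factors are known to bind, which was searched as GTTNCNNNNGNAAC and GTTNCNNNGNAAC. Each of the 2 patterns reads alike on both strands, and they were chosen after the windows had been seen. The windows lie at chr2:21205316-21205615 on the minus strand for Enkur, chr1:69826720-69827019 on the plus strand for Spag16, chr6:73221582-73221881 on the minus strand for Dnah6 and chr17:85620584-85620883 on the plus strand for Six3. The Nkx2-1 window, at chr12:56536859-56537158 on the minus strand, held no match and is printed for contrast. All are written 5′ to 3′ along the gene.

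Enkur: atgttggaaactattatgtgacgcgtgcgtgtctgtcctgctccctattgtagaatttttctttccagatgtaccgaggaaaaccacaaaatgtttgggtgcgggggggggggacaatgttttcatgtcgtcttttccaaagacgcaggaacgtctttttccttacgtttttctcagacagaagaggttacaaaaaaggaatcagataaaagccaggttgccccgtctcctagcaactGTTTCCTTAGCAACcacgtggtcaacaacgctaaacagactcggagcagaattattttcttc
Spag16: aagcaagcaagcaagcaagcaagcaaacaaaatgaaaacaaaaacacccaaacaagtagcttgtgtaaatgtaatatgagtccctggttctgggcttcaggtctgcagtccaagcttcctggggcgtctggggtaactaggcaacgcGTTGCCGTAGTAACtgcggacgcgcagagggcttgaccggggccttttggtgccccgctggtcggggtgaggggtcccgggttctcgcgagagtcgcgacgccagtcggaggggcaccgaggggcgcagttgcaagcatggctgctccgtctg
Dnah6: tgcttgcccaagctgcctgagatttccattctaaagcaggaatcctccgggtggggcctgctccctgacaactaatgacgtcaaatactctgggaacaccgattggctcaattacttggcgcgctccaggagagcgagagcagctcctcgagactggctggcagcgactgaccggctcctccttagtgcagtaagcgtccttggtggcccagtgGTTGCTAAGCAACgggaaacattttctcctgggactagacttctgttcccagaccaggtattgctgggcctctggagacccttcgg
Six3: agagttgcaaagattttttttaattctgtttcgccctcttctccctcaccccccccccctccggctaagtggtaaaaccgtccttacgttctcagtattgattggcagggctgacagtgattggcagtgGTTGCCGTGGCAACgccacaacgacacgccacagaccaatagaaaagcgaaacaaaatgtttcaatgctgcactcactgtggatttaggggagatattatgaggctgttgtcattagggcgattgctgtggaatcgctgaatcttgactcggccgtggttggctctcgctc
Nkx2-1: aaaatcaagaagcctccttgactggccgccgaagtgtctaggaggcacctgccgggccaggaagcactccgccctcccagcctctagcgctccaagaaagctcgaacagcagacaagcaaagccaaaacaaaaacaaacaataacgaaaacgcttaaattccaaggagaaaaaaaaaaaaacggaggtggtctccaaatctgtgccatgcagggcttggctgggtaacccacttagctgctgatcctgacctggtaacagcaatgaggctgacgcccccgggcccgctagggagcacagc

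A match to either pattern was found in 652 of all 32851 promoter windows in the table, or 1.98%. Of the 34 rule genes and genes named below as highest in members, 25 had a window. They gave 33 windows, and 6 of these held a match (18.2%), those of Ak9, Dnah6, Enkur, Gm29478, Six3 and Spag16. Among 22 windows of a list of motile cilium genes, 6 held a match (27.3%), and Dnah6 and Enkur are in both sets. The matched letters in the Enkur window were GTTTCCTTAGCAAC, with their first base 12 bases before the start. A match is a description of letters in the window and does not show a bound site.

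Members were rarest in the library labelled TG_PS19. WT held 75 members among 12761 kept nuclei, or 0.588% (exact 95% interval 0.463% to 0.736%). PS19 replicate 1 held 16 of 4642 (0.345%, 0.197% to 0.559%) and PS19 replicate 2 held 26 of 4922 (0.528%, 0.345% to 0.773%). TG_PS19 held 8 of 9719, or 0.0823% (0.0355% to 0.162%), and its interval did not overlap any of the other 3. The PS19 mean was 0.436% ± 0.130 (SD, n = 2), so TG_PS19 was 0.354 percentage points below it. WT was 0.151 percentage points above the PS19 mean, which is less than the 0.184 points between the 2 PS19 libraries. With doublets left out WT was at 0.506%, PS19 at 0.358% and 0.550% and the difference 0.0523 points. Without PS19 replicate 1 the difference was 0.0595 points, and without PS19 replicate 2 it was 0.243. With 1 library in WT and in TG_PS19 no test was made, and the intervals cover counting error only.

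**Figure D1:**
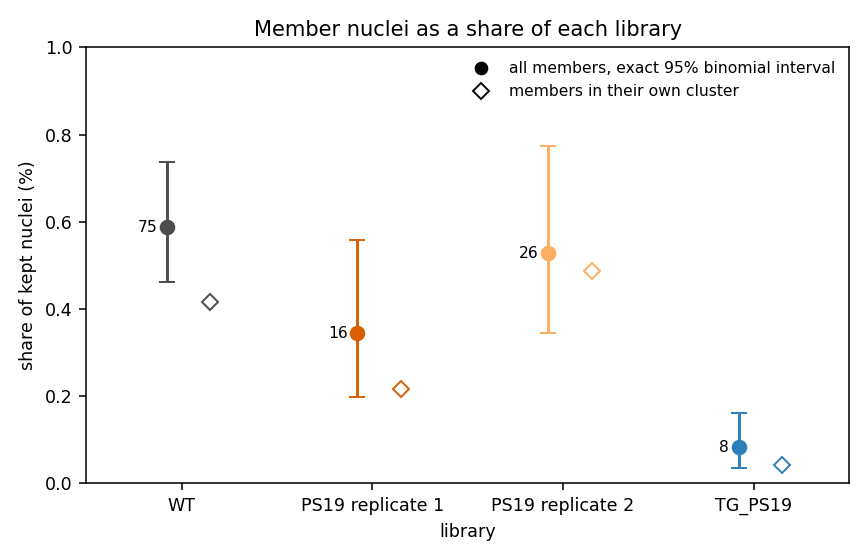
Members as a share of the kept nuclei of each library, in percent, with exact 95% binomial intervals (filled circles, with the number of members beside them) and the share of members in their own cluster (open diamonds). TG_PS19 lies at 0.0823%, and the other 3 libraries lie between 0.345% and 0.588%.

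Neighbouring cell classes did not follow the same order over the libraries. Ependymal-like nuclei made up 0.125% of WT, 0.560% and 0.244% of the PS19 libraries and 0.165% of TG_PS19. Choroid-plexus-like nuclei made up 0.259%, 0.517%, 0.488% and 0.381%, in the same order. Radial-glia-like nuclei made up 1.29%, 0.668%, 0.731% and 0.792%. How the tissue was dissected in each pool was not stated, and its part in these shares was not tested.

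The 4 libraries held 20064025 to 48670533 UMIs, and the medians of nuclei that were not members ran from 2638 to 3707.5 UMIs per nucleus. Members had a median of 3663 UMIs (range 1376 to 27830) and 2061 detected genes, against 1557 genes in other nuclei. Human MAPT had no UMI in WT nuclei and 17.8, 18.7 and 12.5 CPM (UMIs of a gene per 1000000 UMIs) in other nuclei of the PS19 pair and TG_PS19. Human SORL1 had 65.2 CPM in other nuclei of TG_PS19 and at most 0.35 CPM elsewhere, so both transgenes matched the labels. In members MAPT had 0, 1, 1 and 1 UMI and SORL1 had 1 UMI, in TG_PS19. The library labelled TG_PS19 stood apart in Xist, the RNA of the inactive X chromosome, at 1076 CPM in other nuclei against 2.65 in WT and 4.20 and 3.45 in PS19. It also gave 641 of 674 nuclei of an unnamed cluster with a median of 1026.5 UMIs, which held 0 members. Of 31943 barcodes, 100 occurred in more than 1 library, and no barcode was a member in more than 1.

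When all nuclei were clustered, most members fell together. A cluster of 95 nuclei held 91 members, 53 from WT, 10 and 24 from PS19 and 4 from TG_PS19, and is called their own cluster. It was left unnamed because it held the members, whatever its markers, and 8 of 14 ependymal markers were raised in it. Its 10 leading genes were Sfta3-ps, Hpse2, C230072F16Rik, Gm34517, Crb1, 2310014F06Rik, Slit2, Enkur, Cnmd and Spag16. A further 11 members lay in an astrocyte-like cluster led by Gfap, with 4 or 5 rule genes each. In these 11, Hpse2 was detected in 1 nucleus, and summed levels were 1405 CPM for Aqp4, 612 CPM for Gfap and 521 CPM for Myoc. Another 5 members lay in neuron-like clusters, 4 of them in an inhibitory-neuron-like cluster. These 5 were deep, at 10876 to 27830 UMIs, and had 2640 CPM of Syt1, a synaptic vesicle protein gene, and 394 CPM of Sfta3-ps.

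The last 18 members scored as doublets and were left out of the clustering, 17 from WT and 1 from TG_PS19. That was 22.7% of WT members against 10.2% of all WT nuclei. The places were unequal over the libraries. The doublet-scored members gave 37.9% of the UMIs of WT members, 0% and 0% in the PS19 libraries and 12.9% in TG_PS19. The neuron-like members gave 0% of the UMIs of WT members, 29.8% and 28.2% in the PS19 libraries and 60.1% in TG_PS19, the last from 2 nuclei, which enter the total behind every TG_PS19 level. For some genes these 2 nuclei added little to the count itself, with 0 of 25 Slit2 UMIs, 0 of 18 Tgfb2 UMIs and 5 of 60 Hpse2 UMIs. Of the 8 TG_PS19 members, 4 had exactly 4 rule genes. Within the own cluster the shares were 0.415% in WT, 0.215% and 0.488% in PS19 and 0.0412% in TG_PS19, and TG_PS19 was again the lowest.

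Among the rule genes, Sfta3-ps was the most abundant. It is a non-coding transcript (chr12:56488321-56529427, minus strand, GRCm38) and had 1609 UMIs in members, or 2811 CPM (exact 95% Poisson interval 2675 to 2952), against 0.795 CPM in other nuclei. By library it had 3003 CPM in WT, 2775 and 3028 in PS19 and 1065 in TG_PS19. It was detected in 98.4% of members, and after each nucleus was thinned to 1000 UMIs in 88.0%. In oligodendrocyte-like nuclei, which should lack it and had a median of 2230 UMIs, the thinned share was 0.0616%.

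Nkx2-1 (chr12:56531958-56536908, minus strand) lies 2.53 kb from Sfta3-ps and had 98 UMIs in members, or 171 CPM (139 to 209), against 0.120 CPM in other nuclei. Its levels by library were 181 CPM in WT, 150 and 164 in PS19 and 161 in TG_PS19. The TG_PS19 value rested on 8 UMIs, of which 2 came from neuron-like members. Other genes of this stretch of chromosome 12 were also higher in members. Gm47720, which lies inside Sfta3-ps on the same strand, had 129 CPM against 0.0375. Gm26973, antisense to Nkx2-1, had 78.6 CPM against 0.150. Mbip had 206 CPM against 41.6, and Slc25a21, a mitochondrial carrier gene 175.7 kb from Nkx2-1, had 299 against 10.2. Pax9, between them, had 5 UMIs, and Nkx2-9 had 0. Whether counting used strand was not stated, so overlapping transcripts cannot be told apart.

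Hpse2 encodes heparanase 2, a heparan sulfate-binding protein without the enzyme activity of heparanase (chr19:42786539-43388355, minus strand). It had 1295 UMIs, or 2263 CPM (2141 to 2389), against 4.52 CPM in other nuclei. Its levels were 2110 CPM in WT, 2231 and 2993 in PS19 and 1205 in TG_PS19. It was detected in 74.4% of members, fewer than for Sfta3-ps. Gm34517 (chr19:43266936-43277654, plus strand) lies inside Hpse2 on the opposite strand and had 278 CPM (236 to 324) against 0.293. Hpse, which encodes the active enzyme, had 0 UMIs in members, which allows 5.24 CPM at 3 counts.

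Slit2 encodes a secreted ligand of ROBO receptors in axon guidance. It had 2112 CPM (1995 to 2235) in members and 85.1 CPM in other nuclei, and choroid-plexus-like nuclei had 1004 CPM. By library its values were 2530 CPM in WT, 1578 and 2043 in PS19 and 502 in TG_PS19, the lowest. Crb1, a Crumbs protein of apical cell polarity, had 391 CPM (342 to 446) against 4.94, and Cnmd, encoding the secreted protein chondromodulin, had 323 CPM (278 to 373) against 7.89. Cnmd rested on 2 UMIs in TG_PS19 members.

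The other rule genes were shared with ciliated cells. Enkur encodes an axonemal protein and had 307 CPM (264 to 356) in members, 366 CPM in ependymal-like nuclei and 3.58 CPM in other nuclei. C230072F16Rik, a transcript with no protein name, had 484 CPM (429 to 544) in members, 810 CPM in ependymal-like nuclei and 2.85 in other nuclei. Sfta3-ps, Hpse2, Gm34517 and Nkx2-1 had 0 UMIs in the 70 ependymal-like nuclei, which allows 13.7 CPM at 3 counts.

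**Figure D2:**
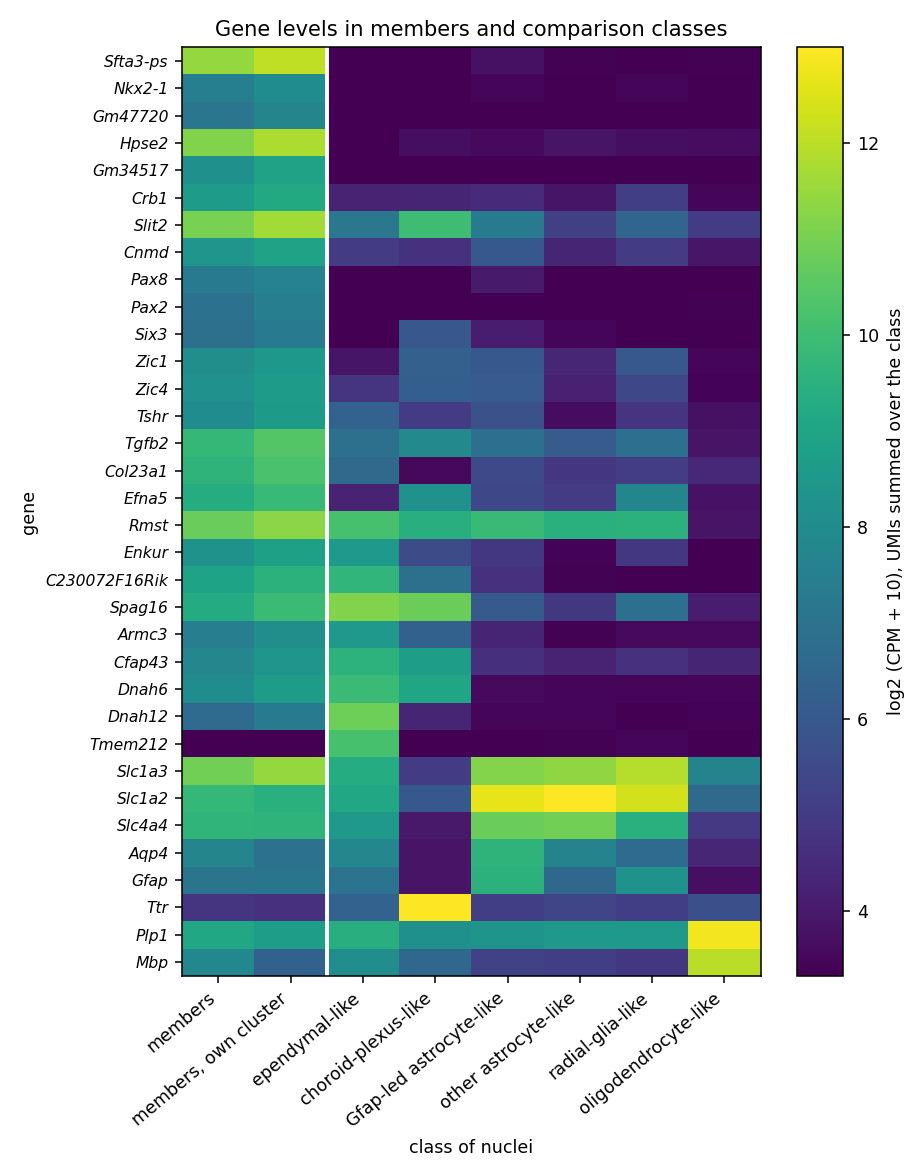
Levels of named genes (rows) as log2 of CPM + 10, from UMIs summed over members, over members of their own cluster and over 6 comparison classes (columns). Sfta3-ps, Nkx2-1 and Hpse2 are bright in both member columns and dark elsewhere. The ependymal-like column is bright for cilium genes including Dnah12 and Tmem212, which has 0 UMIs in members.

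Of 38061 genes with a UMI, 2.96% were higher in members by at least 1 on the scale of log2 of CPM + 10, and 2.45% were lower by as much. Among 9385 genes at 20 CPM or more the shares were 10.6% and 8.71%. These backgrounds stand beside all the counts of raised and lower genes that follow, and nothing is read from them since the same counts chose the members. The 25 genes with the largest differences outside the rule genes, among those detected in at least 20% of members, included transcription factors, cilium genes and secreted or membrane proteins.

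Developmental transcription factors were among the most raised genes. Pax8, best known from thyroid and kidney, had 82 UMIs, or 143 CPM (114 to 178), against 0.300 CPM in other nuclei, a log2 difference of 3.90. Its levels were 139 CPM in WT, 95.2 and 150 in PS19 and 221 in TG_PS19. Pax2 had 64 UMIs, 112 CPM against 0.968, and Six3, a factor of the anterior forebrain and eye, had 62 UMIs, 108 CPM against 0.750. Pax2 and Six3 each rested on 1 UMI in TG_PS19. Six3os1, which overlaps Six3 by 4.79 kb on the opposite strand of chromosome 17, had 171 CPM against 1.31. Pax8 and Pax2 had 0 UMIs in ependymal-like and choroid-plexus-like nuclei, which allows 13.7 and 4.38 CPM, whereas Six3 had 52.5 CPM in the choroid-plexus-like class.

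Genes of the motile cilium were also among the 25. Spag16, a central-pair protein gene, had 610 CPM (547 to 677) against 24.2, a log2 difference of 4.18. Dnah6, an axonemal dynein heavy chain gene, had 253 CPM (214 to 298) against 11.5. By library Dnah6 had 298 CPM in WT, 136 and 293 in PS19 and 40.2 in TG_PS19, the last from 2 UMIs. Ccdc114, of the dynein docking complex, had 370 CPM against 17.3, and Cfap43 had 215 CPM against 11.8. Ak9 and Armc3 had 189 and 166 CPM against 3.99 and 3.17. In ependymal-like nuclei these genes were at higher levels, 2298 CPM for Spag16, 957 for Dnah6, 659 for Ccdc114, 746 for Cfap43, 668 for Ak9 and 362 for Armc3.

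Secreted and membrane proteins made up another group. Tshr, the receptor for thyroid-stimulating hormone, had 145 UMIs, or 253 CPM (214 to 298), against 3.66. It had 304 CPM in WT, 150 and 279 in PS19 and 20.1 in TG_PS19, where it rested on 1 UMI. Tgfb2, a TGF-beta ligand gene, had 867 CPM (792 to 946) against 47.7, with 990 CPM in WT, 503 and 964 in PS19 and 362 in TG_PS19. Col23a1, a transmembrane collagen gene, had 784 CPM (714 to 860) against 43.0. Its values were 806 CPM in WT, 775 and 971 in PS19 and 141 in TG_PS19. Hs3st3a1, a heparan sulfate sulfotransferase gene, had 189 CPM against 9.83, and Mamdc2 had 346 against 21.3.

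The remaining raised genes were of mixed kinds. Acss3, a mitochondrial acyl-CoA synthetase gene, had 653 CPM against 36.1. The long non-coding RNA Rmst had 1780 CPM (1673 to 1893) against 158 and was at 687 to 1149 CPM in the choroid-plexus-like, astrocyte-like, radial-glia-like and ependymal-like classes. 2310014F06Rik had 489 CPM against 12.7, Gm29478 had 493 against 19.0 and Lrrc9 had 245 against 11.6. Gm10044, AC106834.1 and 1700028P14Rik had between 107 and 155 CPM, against at most 5.27 CPM in other nuclei.

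The 10 largest falls among genes at 100 CPM or more in other nuclei ran from -3.25 for 4930420G21Rik to -2.40 for Rapgef5. Htr2c, the serotonin receptor that marks choroid plexus, had 3 UMIs in members against 15999 CPM in choroid-plexus-like nuclei. Ugt8a, which encodes the enzyme for myelin galactolipids, had 29.7 CPM against 237, and Tmeff2 had 234 against 1482. The others were Adam12, Unc13c, St6galnac3, Adarb2 and Csmd2. Adarb2, an inhibitory neuron gene, had 68 of its 69 member UMIs in WT and 0 in the own cluster.

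The label asks whether these nuclei were ependymal, tanycytes, radial glia or another glia, so marker lists were counted without the rule genes. Of 14 ependymal genes, 10 were higher by at least 1 and 0 were lower, with a median log2 difference of 2.18 against -0.0054 over all genes. By library the median was 2.21 in WT, 1.47 and 2.39 in PS19 and -0.09 in TG_PS19. Summed over the list, its level was 1081 CPM in members, 69.6 CPM in other nuclei and 9427 CPM in ependymal-like nuclei. Several defining ependymal genes were at or near 0 in members. Tmem212 had 0 UMIs, which allows 5.24 CPM, against 1140 CPM in ependymal-like nuclei. Ccdc153 had 1 UMI and Spag17 had 4, against 266 and 1012 CPM in that class. Foxj1, the master factor of motile cilia, had 9 UMIs, or 15.7 CPM (7.19 to 29.8), against 77.8 CPM.

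The motile cilium list, which shares 8 genes with the ependymal list, was raised in most of its genes. Of 23 measured genes, 17 were higher by at least 1 and 0 were lower, with a median of 1.96. Its sum was 2643 CPM in members, 811 in other nuclei and 13040 in ependymal-like nuclei. Dnah12 had 94.3 CPM against 1850 in ependymal-like nuclei, and Hydin, a central-pair gene, had 87.4 against 742. Rfx3 had 617 CPM in members and 580 in other nuclei. The list medians by library were 1.95 in WT, 1.53 and 1.94 in PS19 and 0.76 in TG_PS19. TG_PS19 was the lowest, and Dnah12, Hydin and Dnah9 had 0 UMIs there, which allows 60.3 CPM each.

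Tanycyte markers were present in part. Of 11 genes 4 were higher, among them Col23a1, Scn7a and Gpr50, and the median difference was 0.18. Scn7a, a sodium-sensing channel gene, had 41.9 CPM against 2.33. Gpr50 had 7 UMIs. Rax, which defines tanycytes, had 1 UMI, as did Adm, and Crym had 2 and Dio2 had 5.

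Radial glia markers were mostly at the level of other nuclei or below. Of 13 genes 2 were higher, Vim at 31.4 CPM against 9.74 and Lpar1 at 203 against 81.7, and 1 was lower, Pax6 at 8.74 against 28.7. The median was -0.19. Hopx had 5 UMIs in members and 331 CPM in radial-glia-like nuclei, Nes had 7 UMIs and Fabp7 had 3.

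Astrocyte genes were uneven in members. Of 14 genes 2 were higher and 2 lower, with a median of -0.09 and a sum of 4852 CPM, against 5308 in other nuclei and 18935 and 28181 in the 2 astrocyte-like classes. Slc1a3 had 1946 CPM (1834 to 2064) against 590 in other nuclei, close to the 2330 and 2692 CPM of the astrocyte-like classes, and had 2051 CPM in WT, 2013 and 2121 in PS19 and 703 in TG_PS19. Slc1a2, in contrast, had 856 CPM against 6378 and 8511 CPM in those classes. Slc4a4, a bicarbonate transporter gene, had 795 CPM against 544 in other nuclei. Gpc5 had 592 CPM in members, 28.7 in their own cluster and 2081 in other nuclei.

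Aqp4, the astrocyte water channel gene, had 175 CPM in WT, 544 and 100 in PS19 and 161 in TG_PS19, and Gfap had 84.1, 258, 136 and 100 CPM in the same order. The high value of PS19 replicate 1 went with its 5 members in the Gfap-led cluster, which gave 26.6% of the UMIs of its members. In the own cluster Aqp4 had 31.2 CPM in PS19 replicate 1 and 115 CPM over all libraries, and Gfap had 62.4 and 124 CPM. The PS19 replicate 1 values there rested on 1 UMI of Aqp4 and 2 of Gfap, below the 93.6 CPM of 3 counts.

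Other lists were counted in the same way. Of 10 choroid plexus genes 2 were higher, Folr1 at 48.9 CPM against 2.65 and Otx2 at 62.9 against 3.29, and 2 were lower, Ttr and Htr2c. Of 10 oligodendrocyte genes 9 were lower, with a median of -1.93, as were 4 of 10 oligodendrocyte precursor genes and 5 of 9 microglia genes. Of 9 excitatory neuron genes 5 were lower, with a median of -1.05 in all members and -3.17 in the own cluster. None of 4 subcommissural organ genes passed a difference of 1 in either direction, and they summed to 5.24 CPM. Of 12 reactive glia genes 4 were higher and 1 lower, with a median of 0.10. Of 9 inhibitory neuron genes 1 was higher and 1 lower. No endothelial, mural, fibroblast or Cajal-Retzius gene was higher, and 3 of 8, 4 of 8, 3 of 8 and 1 of 6 were lower. Of 10 genes for glutamate, potassium and water handling 2 were higher and 1 lower, and of 13 for thyroid hormone and vitamin A handling 1 was higher and 2 lower.

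**Figure D3:**
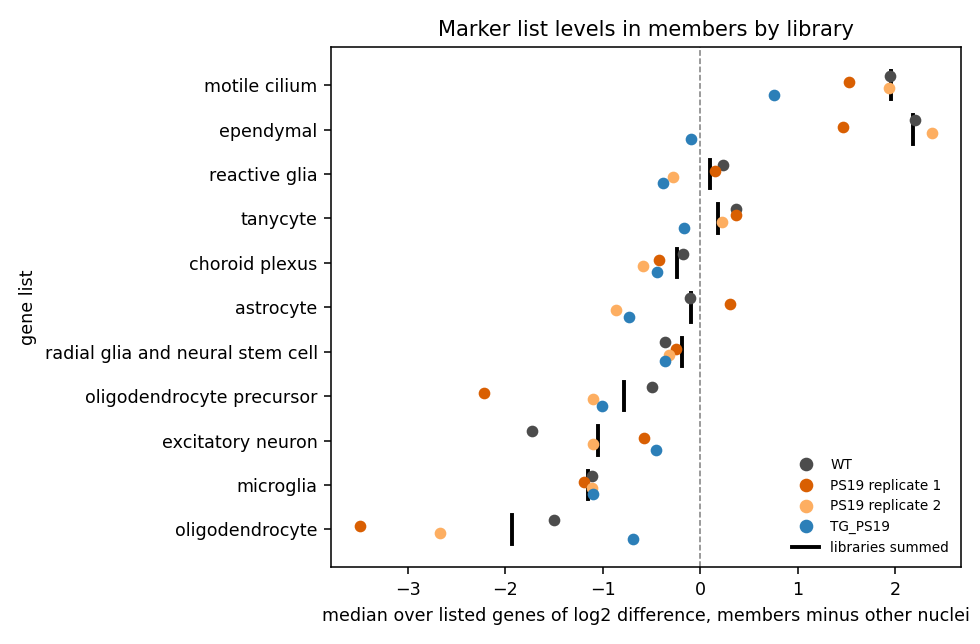
Median over each list of the log2 difference of members minus other nuclei, on the scale of log2 of CPM + 10, for each library (circles) and for the libraries summed (black bars). Motile cilium and ependymal genes lie highest at 1.96 and 2.18, and the oligodendrocyte list lies lowest at -1.93.

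Cilium and astrocyte genes were found in the same nuclei. After thinning to 1000 UMIs, 65 of 125 members (52.0%) had at least 2 cilium and at least 2 astrocyte genes, and so did 55 of 91 members of the own cluster (60.4%). The share was 38.6% in ependymal-like nuclei, 12.8% and 4.53% in the 2 astrocyte-like classes and 5.08% in choroid-plexus-like nuclei. Without thinning the shares were 94.4% in members, 88.6% in ependymal-like nuclei and 44.5% in Gfap-led astrocyte-like nuclei, which shows how much the count depends on depth.

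Regional transcription factors and signalling genes gave further detail. Of 27 regional factors 7 were higher and 4 lower. Zic1 and Zic4, factors of the dorsal midline and diencephalon, had 266 and 288 CPM against 30.4 and 24.5 CPM, and Tcf7l2, a WNT effector of the thalamus, had 412 against 123. Zic1 had 259 CPM in WT, 354 and 243 in PS19 and 241 in TG_PS19, the last from 12 UMIs. Six6 had 6 UMIs in members and none in other nuclei. The lower genes were Pax6, Nr2f1, Nr2f2 and Foxp2.

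Of 30 Notch, SHH, WNT, FGF and BMP genes 7 were higher and 4 lower. Notch2 had 264 CPM against 71.4, its target Hes1 had 122 against 19.8, and the WNT pathway genes Tcf7l1 and Lgr4 had 194 and 264 against 54.9 and 79.9. Of 14 apical polarity and junction genes 4 were higher and 1 lower. Among the higher ones, Patj and Crb2, another Crumbs gene, had 112 and 22.7 CPM against 22.1 and 3.91. The adhesion gene Nectin3 had 292 against 48.0.

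Of 18 axon guidance genes other than Slit2, 2 were higher and 9 lower. Efna5, an ephrin ligand gene, had 629 CPM (566 to 697) against 59.9, and Ntn1, the netrin-1 gene, had 68.1 against 21.6. The other SLIT genes were low, with 21.0 CPM against 102 for Slit1 and 112 against 613 for Slit3. The receptor genes Robo1 and Robo2 had 248 and 166 CPM against 479 and 447, and Robo2 had 3.19 CPM in the own cluster. Of 23 heparan sulfate genes other than Hpse2, 2 were higher and 4 lower. The higher ones were Sulf1, an extracellular sulfatase gene, at 150 CPM against 38.4, and Sdc2, a syndecan gene, at 155 against 63.2.

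The own cluster held nuclei with and without Hpse2, a split noticed in these data and given as a description. Of its 91 members 74 had Hpse2 (42 from WT, 10 and 19 from PS19, 3 from TG_PS19), with a median of 12 UMIs of it, and 17 had none (11, 0 and 5, and 1). Median depths were 3315 and 3666 UMIs, so the nuclei without Hpse2 were not the shallower ones. Every one of the 17 had Nnat, an imprinted gene for a membrane proteolipid, with a median of 4 UMIs (1 to 120), against 22 of the 74. Summed Nnat was 3539 CPM (3100 to 4023) without Hpse2 and 267 CPM (206 to 340) with it. Of its 234 UMIs in the 17 nuclei, 183 came from PS19 replicate 2. Among 7 nuclei with 1 or 2 Hpse2 UMIs, 2 had Nnat.

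Several other genes of the members were found in both sets. Of those below, Sfta3-ps, Nkx2-1, Crb1, Slit2 and Gm34517 are rule genes, so the rule shaped their levels in either set. A member without Hpse2 had to have Sfta3-ps, with at least 4 rule genes in all. Dnah6 and Slc1a3 were not used by the rule. Sfta3-ps was at 3085 CPM without Hpse2 and 4610 CPM with it, Nkx2-1 at 302 and 235, Crb1 at 484 and 599, Dnah6 at 454 and 372, and Slc1a3 at 3252 and 2689. Slit2 was higher without Hpse2, at 6428 CPM (5831 to 7069) against 2349 (2162 to 2548). So were Adgrv1, an adhesion receptor gene, at 2465 against 307 CPM, and Grm8, a metabotropic glutamate receptor gene, at 1936 against 291. Vcan, Id3 and Ctnnd2 were at 423, 333 and 726 CPM without Hpse2 and at 8.09, 12.1 and 16.2 with it, the last 3 from 2, 3 and 4 UMIs. Of the 17 nuclei without Hpse2, 7 had Vcan, 7 had Id3 and 6 had Ctnnd2. PS19 replicate 2 gave 36 of the 48 Ctnnd2 UMIs in these nuclei. Gm34517, inside Hpse2, had 1 UMI without Hpse2 and 145 with it. Megf11 and Prkcb had 1 UMI each without Hpse2 and 67 and 64 with it. Summed levels were 3161 CPM without Hpse2 and 736 CPM with it for the oligodendrocyte precursor list, and 862 and 388 CPM for the reactive glia list. The median log2 difference over the listed genes was only 0.03 for the oligodendrocyte precursor list, and 0.44 for the reactive glia list. Of 9710 genes at 20 CPM or more in either set, 10.2% were higher without Hpse2 by at least 1 on log2 of CPM + 20, and 14.6% were lower.

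**Figure D4:**
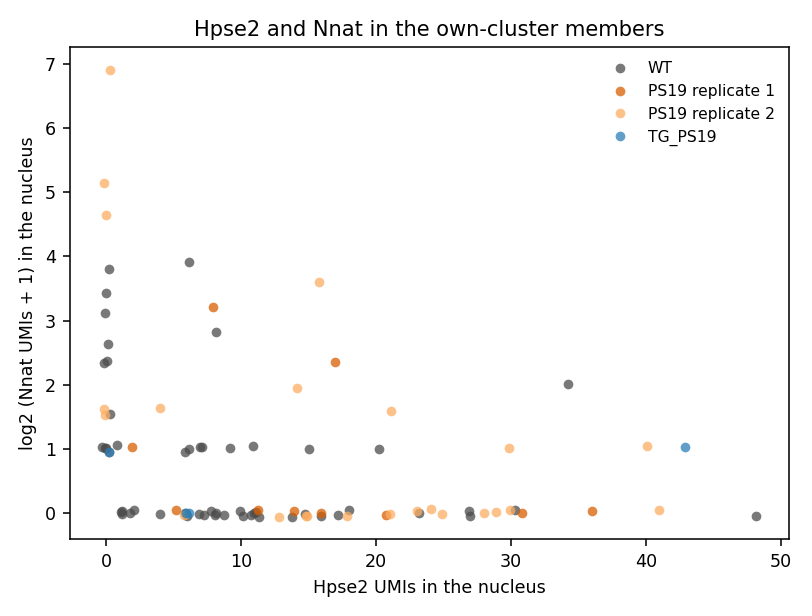
Hpse2 UMIs (x axis) and log2 of Nnat UMIs + 1 (y axis) in each of the 91 members of the own cluster, coloured by library and shifted slightly at random so that points can be told apart. All 17 nuclei at 0 Hpse2 UMIs lie above 0 on the Nnat axis, and 22 of the 74 others do.

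Genotypes were compared on UMIs summed over members within each library, with edgeR's quasi-likelihood test. After its low-count filter 3663 genes were tested and the PS19 pair alone gave the residual degree of freedom, so WT and TG_PS19 were assumed to vary like that pair. The question was what goes with the tau transgene (PS19 against WT) and with added SORLA (TG_PS19 against PS19). Added SORLA cannot be told apart from what goes with the high Xist of the TG_PS19 library, such as the sex of its animals. The comparisons with TG_PS19 rest on 8 nuclei, and those against PS19 and against WT share that library.

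No gene passed an adjusted p of 0.05 between PS19 and WT (0.0% called), with 125 genes at an unadjusted p under 0.05, and DESeq2 also called 0 with 16 unadjusted. Other scaling gave 8 calls, no low-count filter 25, members without doublets 21, at least 5 rule genes 24 and a fit without TG_PS19 33. Among the 5 genes with the smallest p was Chrm3, a muscarinic receptor gene. It had 5 UMIs in WT, 41 and 36 in PS19 and 5 in TG_PS19, and 36 and 34 of the PS19 UMIs came from neuron-like members. On the log2 scale PS19 was higher by 4.56 (SE 0.754), with an adjusted p of 0.137 from edgeR. 9530059O14Rik, Adarb2 and Ntng1 were also among the 5. All PS19 UMIs of 9530059O14Rik came from neuron-like members, and Adarb2 had 68 UMIs in WT, 1 and 0 in PS19 and 0 in TG_PS19. In WT, Adarb2 and Ntng1 had 0 UMIs in the own cluster and 0 in neuron-like members. With doublets left out, the Ntng1 difference went from -6.07 to -2.47.

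Of the genes raised in members, Slc1a3 differed between PS19 and WT by 0.03 (SE 0.506), Tgfb2 by -0.40 (SE 0.586), Col23a1 by 0.13 (SE 0.558), Tshr by -0.44 (SE 0.50), Pax8 by -0.12 (SE 0.531) and Dnah6 by -0.40 (SE 0.519) on the log2 scale, each with an edgeR adjusted p of 1. Gfap was at 84.1 CPM in WT and 258 and 136 CPM in PS19, and its difference of 1.18 (SE 0.582) had an adjusted p of 1.

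Between TG_PS19 and PS19, 4 genes were higher and 0 lower (0.109% called). They were Xist, Reln, Ntng1 and 4930555F03Rik. Xist had 1 UMI in WT members, 2 and 4 in PS19 and 59 in TG_PS19, and the log2 difference was 5.38 (SE 0.601, adjusted p 0.00318 with edgeR). Of these 59 UMIs, 53 came from neuron-like members and 0 from the own cluster. That 0 allows 270 CPM at 3 counts, against 1076 CPM in other TG_PS19 nuclei. Reln, the gene of an extracellular protein of interneurons and Cajal-Retzius cells, had 28 UMIs in WT, 1 and 1 in PS19 and 29 in TG_PS19, and 28 of the 29 came from neuron-like members. Ntng1 had 18, 0, 0 and 22 UMIs, and 4930555F03Rik had 2, 0, 4 and 29. All 22 and 28 of the 29 TG_PS19 UMIs came from neuron-like members. For Ntng1, at 0 in both PS19 libraries, a count of 0 allows 40.8 and 21.4 CPM, and no fold is given.

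The 7 genes higher in TG_PS19 than in WT (0.191% called, 0 lower) included Xist, 4930555F03Rik, Pld5, Slc2a13, Cntnap2 and Gm44829. Cntnap2, a neuronal adhesion gene, had 221 UMIs in TG_PS19 members, of which 218 came from neuron-like members. With relative log expression scaling in place of the trimmed mean, 61 genes were higher and 8 lower. DESeq2 called 0 genes in either comparison with TG_PS19. With at least 5 rule genes required none of these 4 and 7 genes was called. Of those named here, only Pld5, Cntnap2 and Gm44829 passed the low-count filter then, so the others could not be called. That threshold called 68 genes against PS19 and 17 against WT, and 67 and 17 of them were lower in TG_PS19. It dropped both neuron-like members of TG_PS19. It kept the neuron-like members of 21912 UMIs in PS19 replicate 1 and 27830 UMIs in PS19 replicate 2. How far these gave the lower calls was not tested. None of the called genes was a rule gene, and none was in the ependymal, motile cilium, tanycyte or astrocyte lists.

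Within the own cluster alone, which was looked at after the neuron-like members had been seen, 2445 genes were tested and TG_PS19 gave 4 nuclei. Here 0 genes were called between PS19 and WT (0.0%), 6 between TG_PS19 and PS19 (0.245%) and 4 between TG_PS19 and WT (0.164%). None of them was a gene called above, but of those only Cntnap2 passed the low-count filter here. The 4 TG_PS19 nuclei had 0 Xist UMIs, against 1076 CPM in other nuclei of that library, and the reason was not tested. Slc7a11, the cystine transporter gene, had 356 UMIs in WT, 56 and 101 in PS19 and 2 in TG_PS19, and Ank2 had 527, 98, 266 and 9. Nlgn1, a neuroligin gene, had 63, 9, 23 and 29. Slc7a11 and Ank2 were lower and Nlgn1 higher in TG_PS19 than in each of the other groups, by -3.28 for Slc7a11 and 2.97 for Nlgn1 against PS19 (adjusted p 0.0267 and 0.000118 with edgeR). Nnat, Lin7a and Bcat1 were called against PS19, and Ntm against WT. Nnat had 82 UMIs in WT, 13 and 203 in PS19 and 2 in TG_PS19. Of the 203, 183 came from the nuclei without Hpse2 and 120 from 1 of these nuclei.

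The low TG_PS19 levels of genes that describe the members did not pass the test. Slc1a3 differed from PS19 by -1.54 (SE 0.563, edgeR adjusted p 0.345), Col23a1 by -2.61 (SE 0.715, adjusted p 0.214), Tshr by -3.39 (SE 1.02, adjusted p 0.278) and Dnah6 by -2.43 (SE 0.912, adjusted p 0.355). Pax8 differed by 0.82 (SE 0.622, adjusted p 0.709). In the own cluster the TG_PS19 level of Tgfb2 was 1622 CPM against 1061 and 1333 in PS19 and 1385 in WT, and Sfta3-ps was at 3514 CPM against 5087, 4128 and 4283. Hpse2 was at 4956 CPM in TG_PS19 against 5024 and 4108 in PS19 and 2940 in WT, so its low value in all members was not seen there. Slc1a3 was at 1352 CPM against 3838, 2954 and 2622, and its difference from PS19 there was -1.73 (adjusted p 0.13).

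**Figure D5:**
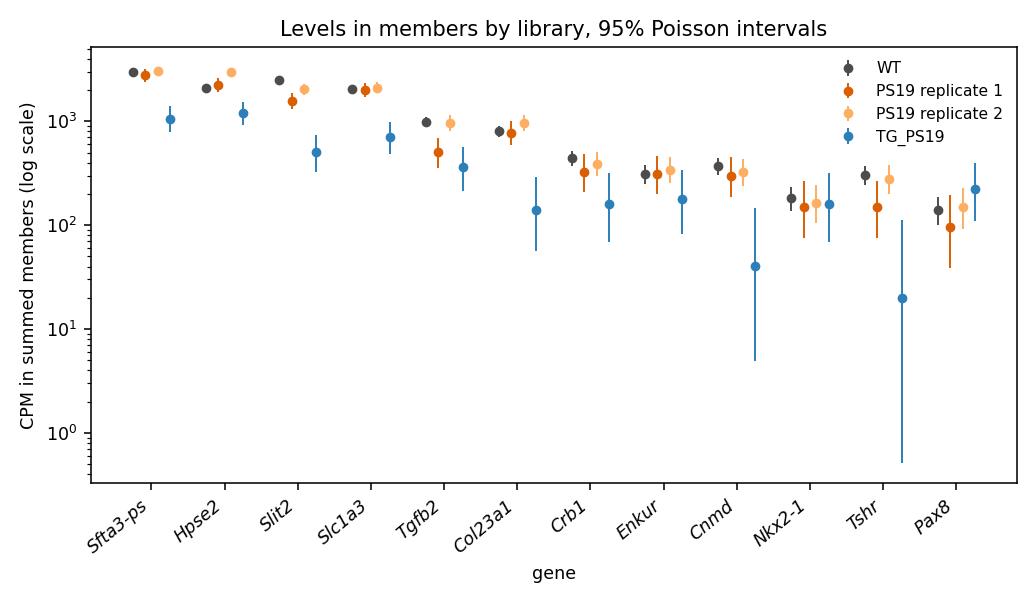
CPM of 12 genes in the summed members of each library (log scale), with exact 95% Poisson intervals for counting error. TG_PS19 points, which include the 2 neuron-like members, lie below the other 3 libraries for every gene shown except Nkx2-1 and Pax8.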

How the data were processed

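Counts of UMIs per gene and nucleus were deposited by the authors as raw matrices for 4 libraries of about 10000 loaded nuclei each (10x 3′ kit, sequenced to about 50000 reads per nucleus). They were made with Cell Ranger 7.1.0 on GRCm38, per the submitters' processing notes. Members, gene lists and tests were chosen with earlier results of these data known. Nuclei with at least 500 UMIs and at most 5% mitochondrial UMIs were kept (4 barcodes fell out). Doublets were scored with Scrublet in scanpy 1.11.5, and the top 0.8% per 1000 nuclei of a library were left out of clustering but kept as members. Classes came from Leiden clusters (leidenalg 0.10.2, 2000 genes, 30 components, 15 neighbours) and fixed markers, and are names by likeness. Levels are CPM of summed UMIs, compared as log2 with a pseudocount of 10 CPM. Intervals (95%) and the limit of 3 counts for a 0 cover counting error only.

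Genotypes were tested with edgeR 4.0.16 (R 4.3.3; TMM, filterByExpr, two-sided quasi-likelihood test, Benjamini-Hochberg at 0.05). P-values rest on the spread within the PS19 pair and on spread shared over genes, which may be technical. They do not measure spread between WT or between TG_PS19 libraries. Alternatives were DESeq2 1.42.0, other scaling, filters, member thresholds, doublet removal and left-out libraries. On simulated counts with 16-fold changes, 87.5% of changed genes were recovered for PS19 against WT, 66.1% for TG_PS19 against PS19 and 71% for TG_PS19 against WT, and with 4-fold changes 36.5%, 16.6% and 2.26%. The simulation gave every library the same starting profile, at a spread set below that of the data. It left out the unequal places of members, so these shares can overstate recovery in the real comparisons. Genes named were the 9 rule genes, the 25 most raised with a UMI in at least 20% of members, the 10 most lowered at 100 CPM or more in other nuclei, called genes (or the 5 of smallest p), 2 to 4 per list, and the transgenes. Further list genes were named after their values were seen. Of 55401 mouse gene identifiers 54349 were in GENCODE release M21, which gave positions. Promoter sequences are from RefSeq on GRCm38.p6. Rule genes are given without a test between genotypes, and some listed or called genes are not reported here.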

Additional observations from a re-analysis of the deposited data

How the results depend on the processing

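No paired analysis was possible because only PS19 had replicate numbers. The share differences kept their direction and stayed within 1 SD of their values under all 9 alternatives, of which the 2 that dropped members by cluster were chosen after seeing the data. WT minus the PS19 mean still moved by over 1.5 times, from 0.151 points to 0.0523 without doublets, 0.0638 in the own cluster and 0.0595 to 0.243 with a PS19 library left out. Counts of called genes did not hold. For PS19 against WT, TG_PS19 against PS19 and TG_PS19 against WT, in place of 0, 4 and 7, they were 8, 54 and 69 with relative log expression scaling, 25, 36 and 57 without the low-count filter, 21, 2 and 79 without doublets, 24, 68 and 17 with at least 5 rule genes (67 and 17 of the TG_PS19 calls lower), 0, 0 and 0 with DESeq2 (16, 39 and 39 at an unadjusted p under 0.05), and 0, 6 and 4 in the own cluster. Leaving TG_PS19 out gave 33 for PS19 against WT. The 4 and 7 TG_PS19 calls were all shared with the scaling and filter alternatives. None was shared with the at least 5 rule genes, DESeq2 or own-cluster ones. Most of these genes did not pass the low-count filter with at least 5 rule genes or in the own cluster, so they could not be called there. Leaving out a PS19 library leaves no residual degree of freedom, so counts were not made. Against WT, with at least 5 rule genes, Pld5 turned to -5.40, Cntnap2 to -0.94 and Gm44829 to -5.28, and in the own cluster Cntnap2 turned to -0.17. Requiring at least 5 rule genes drops the neuron-like members with 4 rule genes, both TG_PS19 ones among them. It keeps those of 21912 and 27830 UMIs in the PS19 libraries.

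With a pseudocount of 1 CPM list medians moved to 1.01 for tanycyte, -0.67 for radial glia, 3.65 for ependymal, -0.80 for choroid plexus and 2.98 for motile cilium genes. With listed genes at 20 CPM or more they were 1.26, 0.065, 2.89, -0.63 and 2.60 in the same order. In the own cluster they were 0.31 for tanycyte, -0.25 for radial glia and 2.29 for motile cilium genes. As means over libraries ependymal and motile cilium medians were 1.51 and 1.503. Radial glia was -0.33 with at least 5 rule genes and -0.35 to -0.29 with a PS19 library left out. The astrocyte median stayed within 1 SD. The 8 TG_PS19 members, with 49779 UMIs, set the depth limit of every comparison with that library.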
